A study of Mus musculus with 10 samples.

Results

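T cell and intraepithelial lymphocyte genes are described here in crypts of the mouse jejunum, as a measure of the lymphocytes that remained in the crypt preparations. The members were 10 genes taken by name out of 54838 listed genes, namely Cd3d, Cd3e, Cd3g, Cd8a, Cd8b1, Gzma, Gzmb, Itgae, Ccl5 and Ptprc. All 10 passed the filter on low counts, which kept 14719 genes. Crypts came from 5 WT mice and from 5 Arid3a cKO mice of the genotype VillinCre-ERT2+/-; Arid3a fl/fl. Animals of both genotypes had received tamoxifen on 3 consecutive days and were culled 1 month after the first injection, and each library came from 1 animal. The age of the animals, and whether WT animals carried Cre or floxed alleles, were not given in the sources used here. Cre was driven by the Villin promoter, which is active in the intestinal epithelium, so lymphocytes were not the cells in which Arid3a was deleted. Villi had been scraped off before crypts were released with EDTA, and no step removed CD45-positive cells from these bulk preparations.

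Intraepithelial lymphocytes are T cells that sit between the epithelial cells of the gut, more of them along villi than in crypts. Their T cell receptor, made of alpha and beta or of gamma and delta chains, signals through the CD3 chains encoded by Cd3d, Cd3e and Cd3g. Most of them carry CD8, either as a dimer of alpha chains, typical of unconventional intraepithelial cells, or with the beta chain that conventional CD8 T cells add. They bind E-cadherin of the epithelium through the integrin CD103, whose alpha chain is encoded by Itgae, and many hold granzymes and the chemokine CCL5 ready for release. Ptprc encodes CD45, the phosphatase found on nearly all leukocytes.

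The libraries held 27050455 to 31053622 counts, so that a level of 1 CPM (counts scaled to the library total) stood for 26.4 to 29.9 counts, and scaling factors of the TMM method lay between 0.934 and 1.083. Levels below are CPM on these scaled library sizes unless TPM, which also correct for gene length, are named. Arid3a, the targeted gene, was at 1.91 to 2.75 CPM in the WT libraries and at 0.303 to 1.17 CPM in those of cKO animals, with a log2 fold change of −1.84 (SE 0.32). Its adjusted p was 0.00204, where p-values are those of edgeR's quasi-likelihood test, adjusted by the Benjamini-Hochberg method over all tested genes. Epithelial genes were abundant in all libraries, with 7469 to 10160 CPM summed over 10 epithelial markers. The animal identifiers in the labels shared no stem between the genotypes, so whatever a stem stands for, which the labels do not say, cannot be told apart from genotype. Within genotypes WT 2 and WT 3, WT 4 and WT 5, cKO 1 and cKO 2, and cKO 4 and cKO 5 shared a stem, and the tests below treat all 10 animals as independent.

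The 3 CD3 genes lie together on chromosome 9, and the granzymes had the highest CPM of the members. The bases before their RefSeq start sites are shown as a description. Each line gives the 250 bases upstream of the start in the RefSeq table for GRCm38.p6, 5′ to 3′ on the strand of the gene, and 7 of the 10 members had an entry there. For Cd3e and Gzmb this start differs from the gene coordinates given below. The RefSeq start of Cd3e, at chr9:45009611, lies inside the gene, which ends at 45009627. That of Gzmb, at chr14:56262334, lies beyond the end of the gene at 56262260. The windows are chr9:44981536-44981785 (plus strand) for Cd3d, chr9:45009612-45009861 (minus strand) for Cd3e, chr9:44980432-44980681 (minus strand) for Cd3g, chr13:113100982-113101231 (minus strand) for Gzma and chr14:56262335-56262584 (minus strand) for Gzmb. Capitals mark matches, on either strand, to AGGAAG, a core that ETS factors bind, to TGTGGT, a core that RUNX factors bind, and to AGATAA, a core that GATA factors bind.
Cd3d: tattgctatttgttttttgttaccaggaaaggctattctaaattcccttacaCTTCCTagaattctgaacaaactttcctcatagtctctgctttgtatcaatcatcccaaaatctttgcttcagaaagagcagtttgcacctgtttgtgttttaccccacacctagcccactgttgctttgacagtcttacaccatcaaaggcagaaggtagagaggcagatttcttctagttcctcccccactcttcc
Cd3e: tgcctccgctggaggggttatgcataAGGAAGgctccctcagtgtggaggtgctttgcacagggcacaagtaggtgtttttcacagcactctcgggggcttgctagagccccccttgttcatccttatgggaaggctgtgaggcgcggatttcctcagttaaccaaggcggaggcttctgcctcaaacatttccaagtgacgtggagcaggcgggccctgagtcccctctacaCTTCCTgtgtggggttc
Cd3g: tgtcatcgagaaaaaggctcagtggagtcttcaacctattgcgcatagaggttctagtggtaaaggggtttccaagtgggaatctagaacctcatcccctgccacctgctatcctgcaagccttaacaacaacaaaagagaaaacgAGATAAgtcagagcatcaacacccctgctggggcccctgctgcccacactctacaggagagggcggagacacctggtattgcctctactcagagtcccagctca
Gzma: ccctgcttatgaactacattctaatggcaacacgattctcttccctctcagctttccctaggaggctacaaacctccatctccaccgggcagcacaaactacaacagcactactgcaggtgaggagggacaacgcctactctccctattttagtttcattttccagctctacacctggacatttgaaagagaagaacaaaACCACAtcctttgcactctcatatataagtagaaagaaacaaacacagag
Gzmb: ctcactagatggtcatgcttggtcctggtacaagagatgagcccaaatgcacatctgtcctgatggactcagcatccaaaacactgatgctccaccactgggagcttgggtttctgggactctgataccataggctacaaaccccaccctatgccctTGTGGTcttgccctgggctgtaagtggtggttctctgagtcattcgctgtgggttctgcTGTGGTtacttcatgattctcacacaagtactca

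The windows differed in what they held. Cd3d had 1 match to AGGAAG and Cd3e had 2, while Cd3g had 1 match to AGATAA and neither of the others. Gzma had 1 match to TGTGGT and Gzmb had 2. Among 32851 windows of the same length, 29.5% held AGGAAG, 14.0% held TGTGGT and 9.99% held AGATAA, so such matches are common and are given as a description. Cd3g and Cd3d are transcribed away from each other from starts 1355 bases apart, and the span from Cd3g to Cd3e covers 40056 bases. Cd8b1 and Cd8a are neighbours on chromosome 6 with 35932 bases between them.

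The lymphocyte genes did not differ detectably between the genotypes. Of the 10 members, 0 passed an adjusted p of 0.05 in edgeR's quasi-likelihood test and 0 had an unadjusted p under 0.05, and DESeq2 and limma-voom also called 0. Of all 14719 tested genes, 28.3% were called, 15.6% as higher and 12.7% as lower in cKO crypts, or 10.5% as higher and 27.4% as lower when libraries were scaled by their size only. In 19.6% of all tested genes the libraries of the genotypes did not overlap, and this held for 0 of the 10 members. The median log2 fold change of the members was 0.15, with 8 above and 2 below 0, beside a median of −0.03 over all tested genes. The members also varied more between animals than most genes did, with standard errors of 0.32 to 0.49 on the log2 scale where the median over all tested genes was 0.11. The width of the 95% confidence interval differed between members, from −0.64 to 0.94 for Cd3e and −1.05 to 0.40 for Ptprc to −1.67 to 0.43 for the sparsely counted Cd8b1, and a difference inside a gene's own interval could not be resolved with these animals. In bulk RNA, fewer cells of a type and less RNA per cell cannot be told apart.

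**Figure D1:**
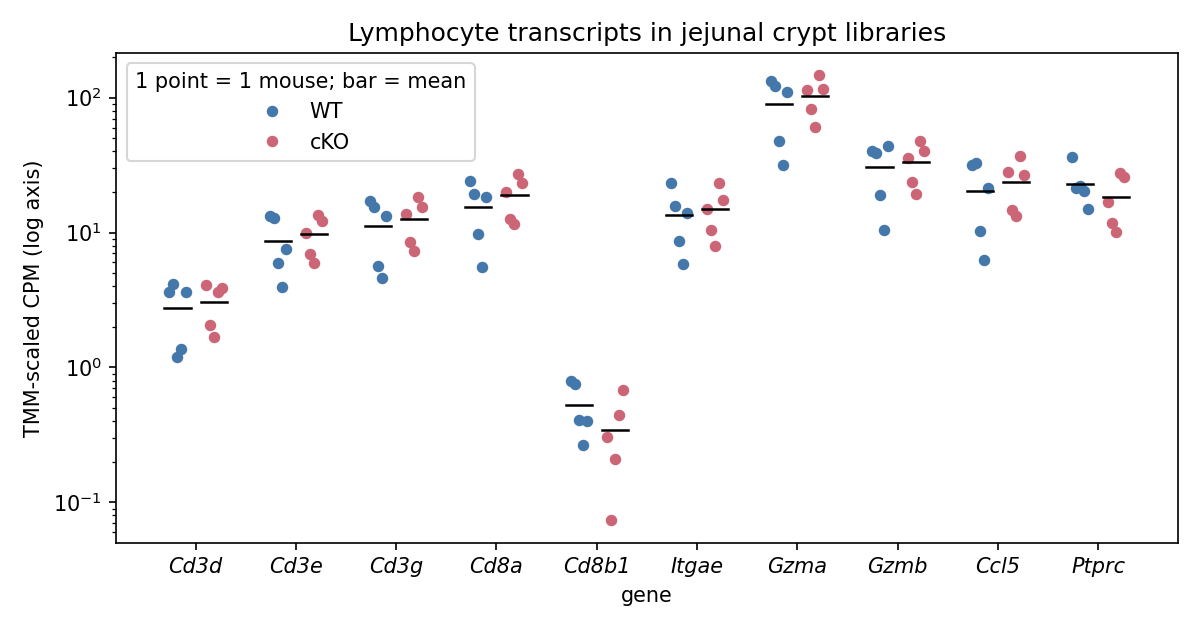
Level of the 10 lymphocyte genes in each library, in TMM-scaled CPM on a log axis, with 1 point per mouse and a bar at the mean of each genotype. The points of WT and cKO libraries overlap for every gene, from Gzma near the top to Cd8b1, which stays below 1 CPM throughout.

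The CD3 chains mark T cells of either receptor class. Cd3e (ENSMUSG00000032093, chr9:44998740-45009627) was at 13.4, 12.8, 5.97, 3.98 and 7.56 CPM in WT 1 to 5 and at 9.97, 6.89, 5.91, 13.5 and 12.2 CPM in cKO 1 to 5. WT 4 was the lowest of the 10 libraries and cKO 4 the highest, and the groups overlapped over nearly their whole range. The WT mean was 8.73 ± 4.16 CPM and the cKO mean 9.69 ± 3.27 CPM (SD, n = 5 each), a 1.11-fold difference with a 95% confidence interval of 0.644 to 1.92 (log2 fold change 0.15, SE 0.35, adjusted p = 0.777, edgeR). Cd3g (ENSMUSG00000002033, chr9:44969572-44980431) ranged from 4.59 to 17.04 CPM in WT and from 7.30 to 18.3 CPM in cKO libraries (log2 fold change 0.18, SE 0.41). Cd3d (ENSMUSG00000032094, chr9:44981786-44987339) was the least abundant chain, with 1.19 to 4.13 CPM in WT and 1.68 to 4.11 CPM in cKO libraries (log2 fold change 0.15, SE 0.38). In all 3, WT 3 and WT 4 were the lowest WT libraries and cKO 2 and cKO 3 the lowest cKO libraries.

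The CD8 chains stood at very different levels. Cd8a (ENSMUSG00000053977, chr6:71373427-71379173), the alpha chain, was at 24.2, 19.4, 9.70, 5.59 and 18.4 CPM in WT 1 to 5 and at 19.9, 12.6, 11.6, 26.98 and 23.5 CPM in cKO 1 to 5. WT 3 and WT 4 lay below the cKO range and the other WT libraries within it (log2 fold change 0.29, SE 0.40, adjusted p = 0.615, edgeR). Cd8b1 (ENSMUSG00000053044, chr6:71322788-71337494), the beta chain, was counted 23, 22, 12, 8 and 11 times in WT 1 to 5 and 9, 2, 6, 13 and 18 times in cKO 1 to 5. With so few counts its log2 fold change of −0.62 (SE 0.48, adjusted p = 0.357, edgeR) had a 95% confidence interval from −1.67 to 0.43. In TPM, where levels of different genes can be compared, Cd8a exceeded Cd8b1 by 11.8-fold in WT 4 to 93.2-fold in cKO 2.

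Itgae (ENSMUSG00000005947, chr11:73090583-73147446), the CD103 chain that binds E-cadherin, was at 5.89 to 23.2 CPM in WT and at 7.90 to 23.5 CPM in cKO libraries. WT 4 was the lowest and cKO 4 the highest of the 10 libraries (log2 fold change 0.14, SE 0.40, adjusted p = 0.820, edgeR). E-cadherin itself, encoded by Cdh1, averaged 809 CPM over WT and 816 CPM over cKO animals (adjusted p = 0.925).

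The effector genes had the highest levels of the members in TPM. Gzma (ENSMUSG00000023132, chr13:113093825-113100981), a granule protease with tryptase activity, was at 132, 123, 47.8, 31.5 and 111 CPM in WT 1 to 5 and at 115, 81.9, 60.2, 147 and 115 CPM in cKO 1 to 5. The 4.203-fold range within WT and the 2.43-fold range within cKO exceeded the 1.17-fold difference between the genotypes (95% confidence interval 0.606 to 2.24, adjusted p = 0.723, edgeR). Gzmb (ENSMUSG00000015437, chr14:56258838-56262260), the granzyme that cleaves caspases in target cells, ranged from 10.5 to 44.1 CPM in WT and from 19.2 to 47.7 CPM in cKO libraries (log2 fold change 0.13, SE 0.41). Ccl5 (ENSMUSG00000035042, chr11:83525778-83530518), a chemokine for T cells and other leukocytes, was at 31.8, 32.9, 10.2, 6.23 and 21.3 CPM in WT 1 to 5 and at 27.9, 14.6, 13.2, 36.7 and 26.5 CPM in cKO 1 to 5. Its 5.28-fold range within WT was the widest of the members apart from Cd8b1 in cKO crypts (log2 fold change 0.22, SE 0.49, adjusted p = 0.768, edgeR).

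Ptprc (ENSMUSG00000026395, chr1:138062861-138175708), which other leukocytes share with T cells, was at 36.5, 21.4, 22.0, 20.3 and 15.04 CPM in WT 1 to 5 and at 16.8, 11.8, 10.1, 27.6 and 25.6 CPM in cKO 1 to 5. Here WT 3 and WT 4 were not set apart from the other WT libraries as they were for the CD3 genes, and WT 5 was the lowest. The log2 fold change was −0.33 (SE 0.32, adjusted p = 0.483, edgeR), below 0 like that of Cd8b1.

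**Figure D2:**
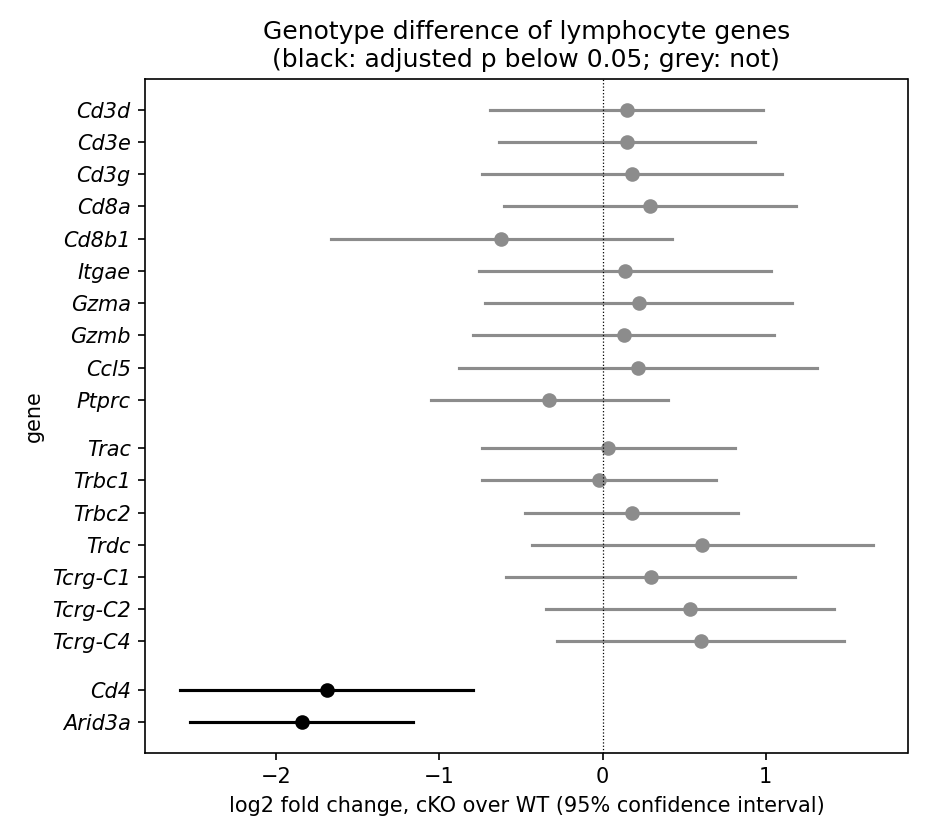
Log2 fold change of cKO over WT crypts with its 95% confidence interval from edgeR, for the 10 lymphocyte genes, the 7 constant genes of the T cell receptor, Cd4 and Arid3a. All intervals of the members and of the receptor genes include 0, and those of Cd4 and Arid3a lie below it.

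Compared per length, the mean TPM over the 10 libraries ran from Gzma (153 TPM) over Ccl5 (63.5 TPM), Gzmb (29.7 TPM), Cd3g (15.8 TPM), Cd3e (11.97 TPM), Cd8a (8.36 TPM), Ptprc (6.37 TPM), Itgae (4.74 TPM) and Cd3d (3.29 TPM) to Cd8b1 (0.395 TPM). The ranges over libraries of neighbours in this order overlapped, except that Cd8b1 at no more than 0.770 TPM stayed below Cd3d at no less than 2.03 TPM. The 10 members together took 0.00977% of the counts in WT 4, the lowest library, and 0.0343% in WT 1, the highest. In summed CPM they came to 90.2 to 323 in WT and to 137 to 345 in cKO libraries.

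The members varied together from animal to animal. WT 4 was the lowest WT library in 8 of the 10 members and cKO 3 the lowest cKO library in 9, while WT 1 was highest in 7 and cKO 4 highest in 8. On log2 CPM with the mean of each genotype removed, Pearson's r over the 10 libraries lay between 0.87 and 0.99 (median 0.96) in the 28 pairs that hold neither Ptprc nor Cd8b1, and between 0.45 and 0.99 (median 0.93) in all 45 pairs. Points of a pair share a library, its depth and its scaling, and the values are a description. Ptprc and Gzmb had an r of 0.46, and Gzma and Cd3g an r of 0.99.

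**Figure D3:**
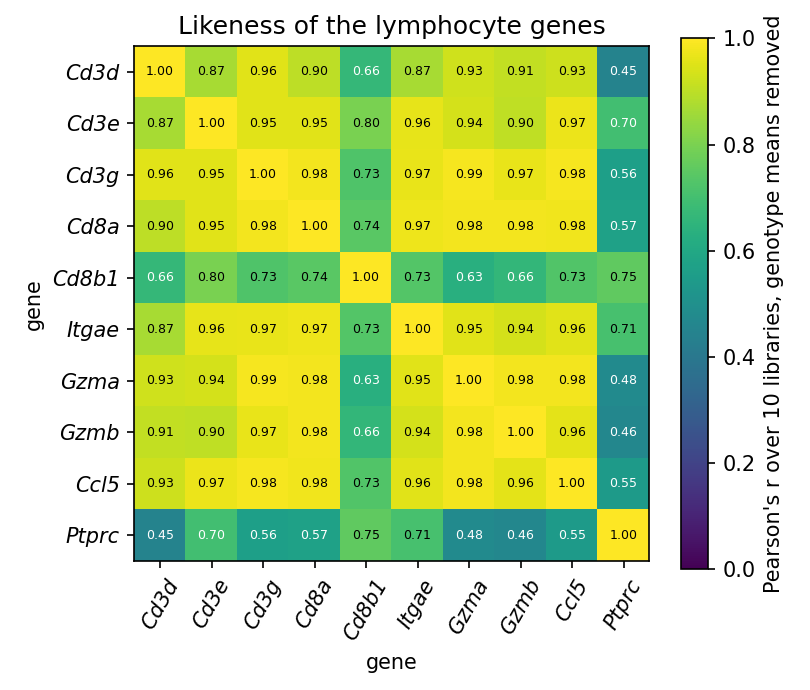
Pearson's r between the 10 lymphocyte genes over 10 libraries, on log2 CPM with genotype means removed. Values among the CD3 genes, Cd8a, Itgae, the granzymes and Ccl5 are 0.87 to 0.99, and those with Cd8b1 and Ptprc are 0.45 to 0.80.

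The genes whose pattern was most like the mean of Cd3d, Cd3e and Cd3g were ranked over all tested genes by the same r, as a description over 10 libraries. Outside the members the leading 10 included Trbc2, Tcrg-C4, Apol7e, Clrn3, Abhd6, Cst7, Mxd1, Cd7 and Adgrg5, with r from 0.989 for Trbc2 to 0.977 for Adgrg5. Trbc2 and Tcrg-C4 encode receptor constant regions, Cst7 the protease inhibitor cystatin F and Cd7 a lymphocyte surface protein. Of these, Clrn3 (log2 fold change 0.90, adjusted p = 0.00238), Abhd6 (1.08, adjusted p = 0.00512) and Mxd1 (1.85, adjusted p = 0.00553, all edgeR) were higher in cKO crypts. Mxd1, an antagonist of MYC known from differentiating cells, had an r of 0.979. It averaged 38.7 CPM over WT and 140 CPM over cKO animals, a difference that removing the genotype means takes out of r. Among genes of other cells, r was 0.89 for Btnl1, 0.78 for Alpi, 0.53 for Epcam, 0.26 for Csf1r and −0.01 for Igha. The helper T cell gene Cd4 had an r of −0.09.

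Villus enterocyte transcripts varied with Cd3e within each genotype. The sum over 10 villus enterocyte genes, among them the alkaline phosphatase Alpi and the disaccharidase Sis, was 4046, 5663, 2263, 1451 and 3124 CPM in WT 1 to 5 and 10090, 9919, 7389, 13290 and 12950 CPM in cKO 1 to 5. WT 4 and WT 3 were lowest in WT, and cKO 3 and cKO 2 lowest in cKO, for the villus sum as for Cd3e, and every cKO library lay above every WT library in the villus sum. With genotype means removed, Cd3e and the villus sum had a Pearson's r of 0.94 over the 10 animals (exact permutation within genotypes, two-sided, p = 4.17e-04, adjusted p = 0.0025 over 6 such relations) and a Spearman correlation of ranks within genotypes of 0.95 (exact permutation p = 0.00125, adjusted p = 0.0075). Without WT 4 and WT 1, the animals farthest from the median of Cd3e, r was 0.93. The other 5 relations of Cd3e, with the summed epithelium, B cell, plasma cell, macrophage and fibroblast lists, had Pearson's r from 0.16 to 0.48 (exact permutation adjusted p of 0.485 or more). Their rank correlations ran from 0.30 to 0.65, the highest being that with the macrophage and dendritic cell list (exact permutation p = 0.0761, adjusted p = 0.228). These 6 relations were chosen after the values had been seen.

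Cd3e can also be set against the villus sum of the same library. Per 1000 CPM of the villus sum, Cd3e was at 3.30, 2.25, 2.64, 2.74 and 2.42 CPM in WT 1 to 5 and at 0.988, 0.694, 0.799, 1.01 and 0.943 CPM in cKO 1 to 5. These quotients, a description chosen after the values had been seen, did not overlap between the genotypes. They carry the difference in the villus sum given above and add no separate result about Cd3e. Of the villus enterocyte genes, 8 of 10 were called higher in cKO crypts and 0 lower, with a median log2 fold change of 1.82. A larger amount of villus tissue and more transcript per cell cannot be told apart in these libraries, and the part of villus tissue in the lymphocyte values was not tested.

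**Figure D4:**
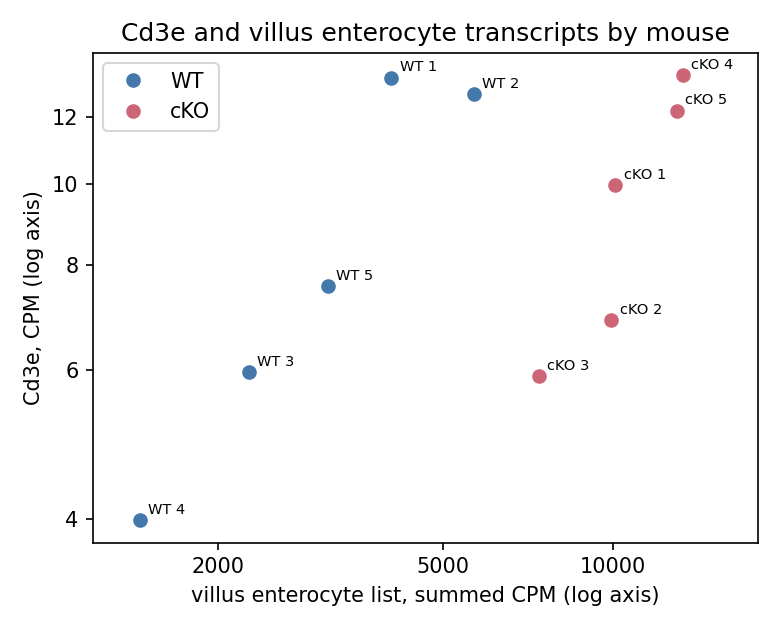
Level of Cd3e against the summed level of 10 villus enterocyte genes, both in CPM on log axes, with 1 labelled point per mouse. Within each genotype Cd3e was ordered as the villus sum, apart from WT 1 and WT 2, which changed places, and the cKO animals lie to the right of the WT animals at a like level of Cd3e.

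The constant genes of the T cell receptor encode parts of its alpha, beta, gamma and delta chains, and which T cells their transcripts came from was not tested. None of these 7 genes passed the test between genotypes. For Trac, the alpha constant gene, the log2 fold change was 0.03 (SE 0.36, adjusted p = 0.956, edgeR) and for Trdc, the delta constant gene, 0.61 (SE 0.47, adjusted p = 0.353). The beta genes Trbc1 and Trbc2 stood at −0.02 and 0.18, and the gamma genes Tcrg-C1, Tcrg-C2 and Tcrg-C4 at 0.29, 0.54 and 0.60. Trbc1 and Trbc2, and Tcrg-C1 and Tcrg-C2, are near-identical copies whose shared reads were divided by estimation, so their separate values are uncertain.

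Within a library, however, the balance of delta to alpha transcripts differed. The ratio of Trdc to Trac counts was 2.26, 2.04, 1.65, 1.43 and 2.03 in WT 1 to 5 and 3.22, 3.02, 2.54, 3.11 and 2.83 in cKO 1 to 5. All cKO ratios lay above all WT ratios, a mean difference of 0.66 on the log2 scale (exact permutation test, two-sided, with p = 0.00794, the lowest that 5 animals against 5 allow, adjusted p = 0.0476 over 6 ratios). Without cKO 4 the difference was 0.64 with an exact adjusted p of 0.0714. These are counts, not corrected for length, so a ratio above 1 does not say that delta transcripts outnumbered alpha transcripts. In TPM, Trac lay above Trdc in every library. Trac averaged 7.41 TPM over WT and 7.17 TPM over cKO animals, and Trdc averaged 2.31 and 3.36 TPM. In WT libraries the Trdc to Trac ratio was ordered as the villus sum, apart from WT 1 and WT 2, which changed places. In cKO libraries cKO 3 was lowest in both, but the others were not in the same order. Every cKO library also lay above every WT library in the villus sum, and the relation of the ratio to that sum was not tested.

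The ratio of Cd8b1 to Cd8a counts was lower in cKO crypts, at 0.0227 to 0.0508 in WT and 0.00728 to 0.0298 in cKO libraries. The groups overlapped, with WT 5 lowest in WT and cKO 5 highest in cKO. The mean difference was −1.18 on the log2 scale (exact permutation p = 0.0159, adjusted p = 0.0476), and it rests on 2 to 23 counts of Cd8b1 per library. The call was lost without WT 1, WT 3, WT 4, cKO 2, cKO 3 or cKO 4, with differences between −1.24 and −0.88, and with TPM in place of counts (−0.92, exact adjusted p = 0.0714).

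The ratio of Cd4 to Cd8a counts was 0.0784, 0.0399, 0.197, 0.409 and 0.153 in WT 1 to 5 and 0.0414, 0.0364, 0.0315, 0.0107 and 0.0475 in cKO 1 to 5. Cd4 was counted 22 to 77 times per WT library and only 8 to 29 times per cKO library, with 8 counts in cKO 4. Apart from WT 2, each WT ratio lay above all cKO ratios (mean difference −2.13 on the log2 scale, exact permutation p = 0.0238, adjusted p = 0.0476). This call was lost on leaving out the same 6 animals, with differences between −2.31 and −1.72, and with TPM (−1.69, exact adjusted p = 0.0794). The remaining ratios did not pass the test, namely Gzma to Gzmb (difference 0.12, exact adjusted p = 0.286), Cd3e to Ptprc (0.60, exact adjusted p = 0.179) and Cd3e to Epcam (0.04, exact adjusted p = 0.929). Without WT 2, the ratio of Cd3e to Ptprc passed with a difference of 0.79 (exact adjusted p = 0.0476).

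**Figure D5:**
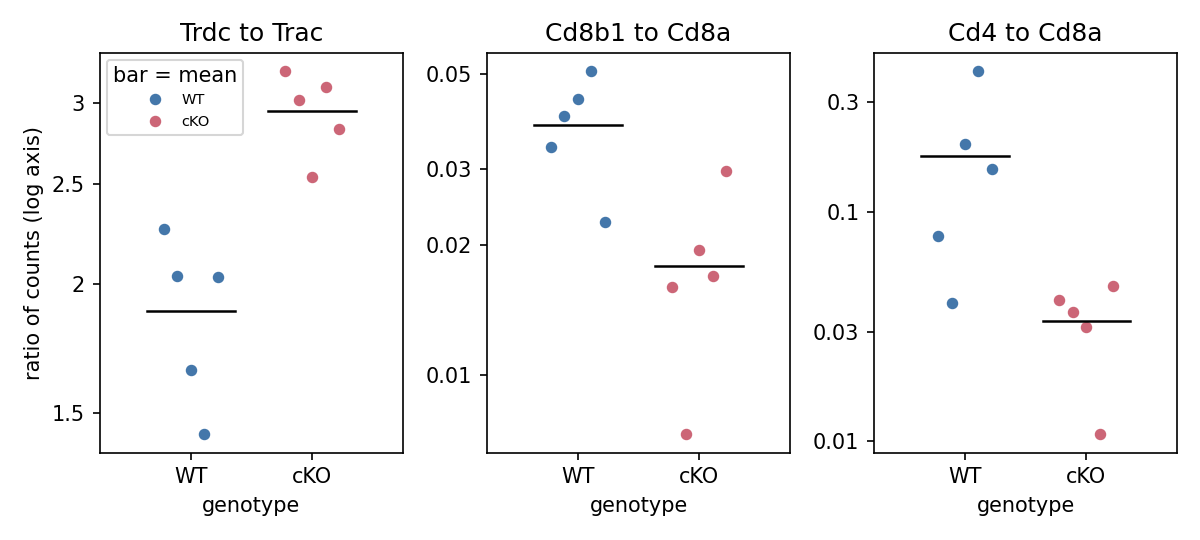
Ratio of counts within each library for Trdc to Trac, Cd8b1 to Cd8a and Cd4 to Cd8a, on log axes, with 1 point per mouse and a bar at the mean of each genotype. The cKO ratios of Trdc to Trac lie above all WT ratios, and those of Cd8b1 to Cd8a and Cd4 to Cd8a are lower with overlap.

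Across 3 further lists of T cell genes, 1 gene was called. Of 18 tested genes of the receptor and its signalling, out of 22 listed, 0 were called, and their median log2 fold change was 0.04. Lck, the kinase that starts receptor signalling, averaged 7.63 ± 2.31 CPM over WT and 8.05 ± 2.62 CPM over cKO animals (SD, n = 5 each). Of 11 tested cytotoxic effector genes, out of 15 listed, 0 were called (median −0.06), and Serpinb9, an inhibitor of granzyme B, stood at a log2 fold change of −0.14 (adjusted p = 0.438, edgeR). Srgn, the proteoglycan of granules, stood at −0.21 and the cathepsin gene Ctsw at −0.06. Of 18 tested genes of gut residency and innate-like receptors, out of 21, only Cd38 passed. Its log2 fold change was 0.20 (SE 0.07, adjusted p = 0.0401, edgeR), and it lost that call in 13 of 21 alternative analyses. Cd38 averaged 83.7 CPM over WT and 96.3 CPM over cKO animals. Its range within WT was 1.19-fold, where that of Cd3e was 3.35-fold, and which cells its transcripts came from was not tested.

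Cd4, the co-receptor of helper T cells, was lower in cKO crypts. It was at 1.88, 0.757, 1.90, 2.28 and 2.80 CPM in WT 1 to 5 and at 0.808, 0.442, 0.349, 0.272 and 1.10 CPM in cKO 1 to 5, so that only WT 2 fell within the cKO range. The log2 fold change was −1.69 (SE 0.41, adjusted p = 0.0110, edgeR), and it stayed past the threshold in all 20 alternatives in which Cd4 was tested. With genotype means removed, Cd4 had an r of −0.09 with the mean of the CD3 genes. Which cells its transcripts came from was not tested. No other tested gene of the CD4 and naive T cell list passed, among them Il7r and S1pr1, and 4 of 8 were too low to be tested. The median of the 4 tested genes was −1.46.

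Markers shared by all leukocytes and those of plasma cells mostly had lower values in cKO crypts. Of 16 pan-leukocyte genes, 0 were called, but 14 had a log2 fold change below 0 (median −0.56), among them Laptm5 (−0.57) and Coro1a (−0.63), while Rac2 stood at 0.03. The summed pan-leukocyte level lay between 76.7 and 165 CPM in WT libraries and between 55.6 and 124 CPM in cKO libraries. Plasma cell genes were lower in cKO crypts, with Igkc, Jchain and Igha called out of 6 tested at log2 fold changes of −1.92, −1.95 and −1.91 (adjusted p = 0.00182, 0.00196 and 0.00505, edgeR). Their list summed to 173 to 289 CPM in WT and 40.6 to 110 CPM in cKO libraries, without overlap.

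B cell and macrophage genes also had lower values in cKO crypts, few of them past the threshold. Of 8 B cell genes, Cd79b, a chain of the B cell receptor, was called (−1.51, adjusted p = 0.0230) but lost that call in 5 of 21 alternatives, and all 8 were below 0 with a median of −1.85. The B cell sum ran from 3.78 CPM in WT 5 to 58.9 CPM in WT 1, a wider spread than that of the T cell genes. Of 10 tested macrophage and dendritic cell genes, the complement genes C1qa, C1qb and C1qc fell, at −1.28, −1.46 and −1.51 (adjusted p = 0.0297, 0.0312 and 0.0197, edgeR), and C1qa and C1qb lost that call in 8 and 7 of 21 alternatives. The macrophage and dendritic cell list summed to 44.4 to 94.4 CPM in WT and to 23.4 to 115 CPM in cKO libraries. The sum of cKO 4 was the highest of all libraries, while the other cKO sums lay below every WT sum. All 6 markers of natural killer and innate lymphoid cells were too low to be tested, with a summed level of 0.168 to 0.945 CPM. The part of these other leukocytes in the values of Ptprc was not tested.

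Genes through which the epithelium holds and feeds intraepithelial lymphocytes were mostly higher in cKO crypts, while the lymphocyte genes themselves did not differ detectably. Of 15 such genes, 9 were called higher and 1 lower, with a median log2 fold change of 0.57. Il15, the cytokine on which many intraepithelial T cells depend, averaged 3.14 CPM over WT and 8.77 CPM over cKO animals (log2 fold change 1.48, SE 0.23, adjusted p = 0.00152, edgeR). Btnl1, a butyrophilin-like protein that maintains gamma-delta T cells of the mouse small intestine, averaged 57.9 and 139 CPM (1.27, SE 0.24, adjusted p = 0.00557).

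Among the others of that list, Btnl4 (0.82), Cxadr (0.41), a junction protein that binds JAML, and H2-T3 (0.71), which encodes the CD8 alpha ligand TL, were higher as well. Ccl25, which attracts CCR9-bearing lymphocytes, Btnl2, Btnl6 and Il18 were called higher, and Tgfb1 was called lower (−0.68, adjusted p = 0.0363). On the lymphocyte side, Ccr9, the receptor for CCL25, had a log2 fold change of 0.27 (SE 0.34, adjusted p = 0.575), and Il2rb, a chain of the receptor for IL-15, of 0.49 (SE 0.30, adjusted p = 0.248). The villus sum was also higher in every cKO library than in any WT library, and its relation to these epithelial genes was not tested.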

How the data were processed

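RNA-seq of polyadenylated RNA from jejunal crypts was analysed for 5 WT and 5 Arid3a cKO animals, grouped by the genotype in the sample labels. The authors used the nf-core/rnaseq pipeline, with STAR for alignment and RSEM for quantification on GRCm38 with Ensembl gene models. For each gene the authors deposited an expected count, not normalized between libraries, and TPM and FPKM values. RSEM divides reads that match several genes, and the strand setting was not given in the sources used here, so counts of near-identical, overlapping and antisense genes are uncertain. FPKM values were not used.

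After rounding to whole numbers, the expected counts were tested in R 4.3.3 with edgeR 4.0.16 (filterByExpr with a minimum count of 10 and a minimum total count of 15, TMM, robust quasi-likelihood test of genotype, Benjamini-Hochberg adjustment over 14719 genes, threshold 0.05). The study's own model was DESeq2 with genotype and time. All these libraries are of a single time, and DESeq2 1.42.0 was run as an alternative without it. Symbols from the GENCODE annotation matched 54723 of 54838 gene identifiers, and gene coordinates are from that annotation of GRCm38. CPM are on TMM-scaled library sizes, and log2 CPM and ratios had 0.5 counts added. Ratios were compared over all 252 assignments of the animals, and relations of Cd3e over 14400 permutations within genotypes, both two-sided. Simulated data with known changes were used to test the scripts.

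The members and gene lists were chosen with earlier results of these data known. Named genes were the members, Arid3a, the receptor constant genes, and from each other list at most 5 called genes with the smallest p or, where none was called, up to 3 tested genes with the highest mean CPM. Ccl25, Btnl2, Btnl6, Il18, Tgfb1, Cdh1, Ccr9, Il2rb, Il7r, S1pr1, Epcam and Csf1r fall outside this rule and were added after their values had been seen. A few genes named by this rule are not reported here and were kept in all counts of the lists. Alternatives were DESeq2, limma-voom (limma 3.58.1), unrounded counts, an effective length offset, RLE factors, scaling by library size alone, a stricter filter (10 counts or more in each sample) and none, log2(TPM + 0.1) and log2(TPM + 1) with limma, ratios of TPM, the replicate number as a block, and leaving out each animal. Reads carry no molecular identifiers, and at 26.4 to 29.9 counts per CPM a gene such as Cd8b1 carries a large counting error.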

Additional observations from a re-analysis of the deposited data

How the results depend on the processing

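The count of called genes lay between 3007 and 5574 over 21 alternatives, beside 4167 in the analysis reported, the lists held 26 to 42 called genes beside 35, and 0 members were called in any of them. Under scaling by library size alone the median over all tested genes went from −0.03 to −0.16 on the log2 scale, and that of the members from 0.15 to 0.03. With limma on log2(TPM + 0.1), 9.50% of genes were higher and 18.6% lower, and the median of all genes was −0.13. Fold changes near 0 changed sign: with library size only Trac was at −0.088, Lck at −0.047 and Rac2 at −0.11, and with the effective length offset Trbc1 was at 0.0077 and Adgrg5 at −0.14. With log2(TPM + 0.1) Trac was at −0.029, Lck at −0.080 and Adgrg5 at −0.085, and with log2(TPM + 1) Trac was at −0.027, Lck at −0.068 and Adgrg5 at −0.078.

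When single animals were left out, log2 fold changes ran from −0.046 to 0.34 for Cd3d, −0.033 to 0.36 for Cd3e, −0.019 to 0.38 for Cd3g, −0.090 to 0.31 for Gzmb, −0.086 to 0.43 for Itgae and −0.015 to 0.45 for Ccl5. The ranges were −0.17 to 0.23 for Trac, −0.21 to 0.29 for Trbc1, −0.063 to 0.21 for Lck, −0.31 to 0.15 for Ctsw, −0.095 to 0.15 for Rac2, −0.093 to 0.76 for Mcpt2, −0.044 to 0.36 for Apol7e and −0.057 to 0.38 for Adgrg5. Log2 ratio differences ranged from −1.39 to −0.88 for Cd8b1 to Cd8a, −2.56 to −1.72 for Cd4 to Cd8a, 0.56 to 0.73 for Trdc to Trac, 0.39 to 0.79 for Cd3e to Ptprc and −0.17 to 0.24 for Cd3e to Epcam. With TPM the differences were −0.92 for Cd8b1 to Cd8a and −1.69 for Cd4 to Cd8a. The relation of Cd3e to the villus sum kept r between 0.90 and 0.96.

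Of 209 values of the members under these alternatives, 199 kept their direction and 10 changed sign, all 10 on leaving out an animal. Of 1108 values of other named genes, 1009 kept direction and call, 40 changed sign, 51 lost a call and 8 gained it. The cause of these changes was not tested. Same-numbered animals did not deviate together (r from −0.21 to 0.09), so the numbers do not pair the samples, and the fit with the replicate number as a block called 3048 genes, 0 of the members and 29 in the lists. Cd8b1 and Cd4 could not be tested under the minimum of 10 counts in every sample.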

Other observations

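Transcription factors of lymphocytes did not move as a group. Among 12 tested, Zbtb7b (log2 fold change 0.35, adjusted p = 0.00368) and Prdm1 (0.90, adjusted p = 0.0106) were higher and Tcf7 (−0.56, adjusted p = 0.00586, edgeR) was lower in cKO crypts, with a list median of −0.12. Zbtb7b was at 107 CPM in WT crypts, above every T cell receptor gene, and intestinal epithelium is also known to express these factors, so the values do not describe lymphocytes alone. The factor that defines regulatory T cells, Foxp3, was too low to be tested, averaging 0.254 CPM over WT and 0.0884 CPM over cKO animals.

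Of 6 mast cell genes 2 were tested, Mcpt1 (0.22, adjusted p = 0.712) and Mcpt2 (0.13, adjusted p = 0.857), and neither passed. Siglecf was the only granulocyte gene of 6 tested and was higher in cKO crypts (0.77, adjusted p = 0.00149, edgeR). S100a8 and S100a9 averaged below 0.2 CPM in both genotypes. Siglecf varied 1.27-fold within WT and 1.335-fold within cKO. Which cells its transcripts came from was not tested, so its value does not describe granulocytes as a group. The endothelial gene Pecam1 was lower in cKO crypts (−1.19, adjusted p = 0.00984, edgeR). It was the only tested gene of 5 endothelial genes listed, so its value does not describe endothelium as a group. The smooth muscle gene Acta2 was lower as well (−1.59, adjusted p = 0.0455, edgeR) and lost that call in 9 of 20 alternatives. The other 8 fibroblast and muscle genes did not pass, among them Col1a1 (0.09), Col3a1 (−0.03) and Lum (0.38), and the list median was −0.52. Their list summed to 10.6 to 84.2 CPM in WT and 9.09 to 134 CPM in cKO libraries. The highest sum was that of cKO 4, which was also the highest cKO library in 8 of the 10 lymphocyte genes, and without cKO 4 the median log2 fold change of those genes was 0.0062 with 0 called. The part of stromal tissue in those values was not tested. The haemoglobin genes Hbb-bs (−1.51), Hba-a1 (−1.58) and Hba-a2 (−1.36) did not pass.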
